A study of Rattus norvegicus with 172 samples.

Results

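On day 10 after a complete transection of the rat thoracic spinal cord, the cord just caudal to the gap was compared between rats whose gap held a chitosan tube seeded with NT-3-chitosan carriers (NT-3 tube) and rats whose gap held an empty chitosan tube (tube alone). The comparison holds 6 of the 172 arrays of the series, 3 NT-3 tube arrays and 3 tube alone arrays, chosen by the arm, segment and day in their titles. All animals were female Wistar rats, 2 months old, in which 5 mm of cord had been taken out at T7-8. Each array carried RNA of a 5 mm caudal segment pooled from 4 animals, and the pools of a group were biologically separate. The same caudal segment on day 10 in animals whose gap was left empty (lesion control, 3 arrays), the rostral segment on day 10 (3 NT-3 tube and 2 tube alone arrays), the caudal segment on the other days and uninjured normal cord (3 arrays) are used for reference. The tissue is whole cord beside the lesion, not the tube itself, so that fewer cells of a type and less RNA per cell cannot be told apart.

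Neurotrophin-3 (NT-3) is a secreted growth factor of the nerve growth factor family. It binds mainly the receptor tyrosine kinase TrkC, encoded by Ntrk3, and it supports proprioceptive sensory neurons and the growth of corticospinal axons in rodents. Caudal to a complete transection, axons that came from the brain degenerate while the local circuits and their motor neurons remain, microglia and blood-derived macrophages clear myelin, and fibroblasts, pericytes and reactive astrocytes build the scar.

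Values are log2 intensities on the Affymetrix scale (RMA), where a difference of 1 is 2-fold. Differences are NT-3 tube minus tube alone with their standard error (SE), from limma fitted to all caudal and normal cord arrays. A gene is called, and described as having risen or fallen, when its p adjusted by the method of Benjamini and Hochberg over the 11475 genes tested is under 0.05. Of 14218 named genes, each read by 1 probe set, those above a dim level of 6.55 in at least 1 group were tested.

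The arrays carried the defining genes of spinal cord. In the 6 arrays the myelin gene Mbp lay between 14.58 and 14.76, the neuronal gene Snap25 between 13.08 and 13.49 and the astrocyte gene Gfap between 14.02 and 14.35. The median spread within a group was wider for NT-3 tube (SD 0.168) than for tube alone (0.122) and lesion control (0.116), and it was the widest of the 21 caudal groups, whose median was 0.120.

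Hox genes, which keep their position-dependent levels in the adult cord, did not all follow the segment labels. Over the arrays outside the NT-3 tube day 10 groups, 5 Hox genes differed between the segments by at least their SD, with Hoxa10, Hoxa9 and Hoxd9 higher caudally and Hoxc4 and Hoxc5 higher rostrally. On the array labelled NT-3 tube caudal replicate 1 all 5 genes lay on the rostral side of the midpoint, with Hoxa10 at 7.10 against a mean of 8.95 on other caudal and 7.59 on other rostral arrays. Replicate 2 had 4 genes and replicate 3 had 3 genes on the caudal side, and each of the 3 tube alone arrays had all 5. Hoxd9 lay on the rostral side on all 3 NT-3 tube caudal arrays (6.87, 7.48 and 7.09, midpoint 7.62), as on 12 of the 60 other caudal arrays. On replicate 3 Hoxa10, which separates the segments most, was also on the rostral side (8.03, midpoint 8.27), as on 2 of those 60. On the array labelled NT-3 tube rostral replicate 1 all 5 lay on the caudal side, with Hoxa10 at 9.32. Of the other caudal arrays 5 of 60, and of the other rostral arrays 5 of 59, also had most of these genes on the wrong side. No array was moved or renamed, and the counts of calls are given with and without the arrays concerned.

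**Figure D1:**
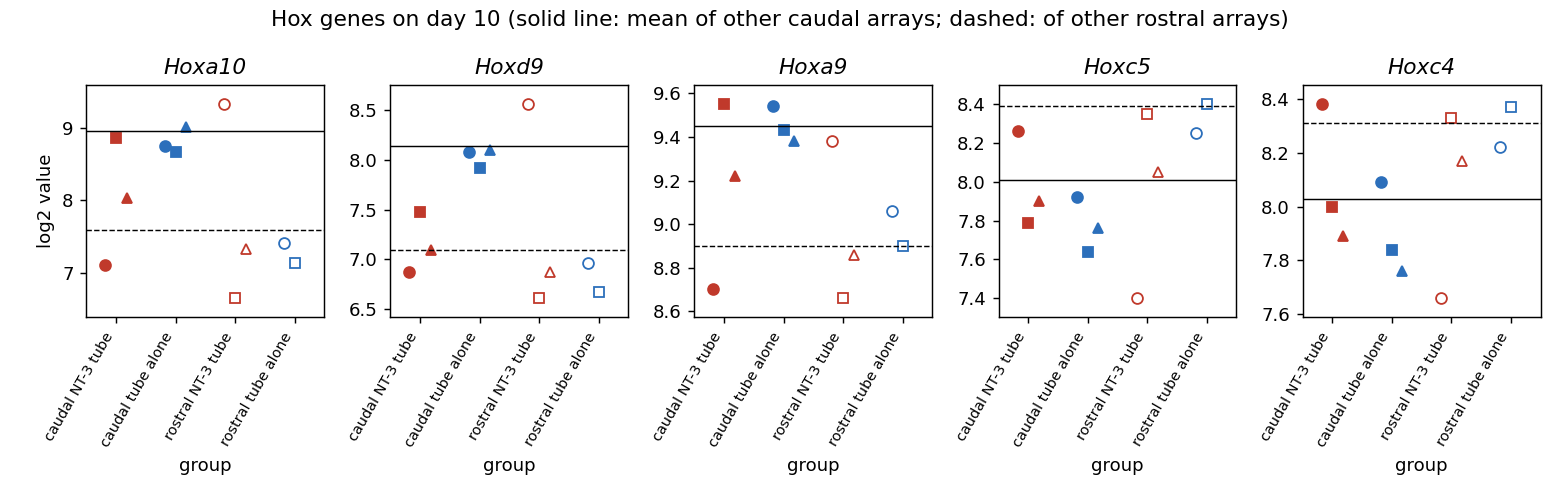
Log2 values of 5 Hox genes on the day 10 arrays, with NT-3 tube in red and tube alone in blue, caudal filled and rostral open, and circles, squares and triangles for replicates 1, 2 and 3. The solid and dashed lines are the means of the other caudal and other rostral arrays; the circle of caudal NT-3 tube lies at the rostral level and the circle of rostral NT-3 tube at the caudal level for Hoxa10 (7.10 and 9.32).

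Between NT-3 tube and tube alone 423 genes differed (3.69% of those tested). Of these 104 rose (0.906%) and 319 fell (2.78%), with a median size of 0.48. Only 9 differed by at least 2-fold, the rest by less. Over all 11475 genes tested 5032 differences were positive and 6420 negative. This split and the shares of 0.906% and 2.78% are the background for each gene list below. After a further quantile normalization the split was 180 higher and 325 lower. In 381 of the 423 genes the 2 groups did not overlap, as in 1887 of all genes tested.

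The calls rested on the pooled spread and on single arrays. With the spread of these 6 arrays alone limma called 0 genes, with 1365 at an unadjusted p under 0.05. Without NT-3 tube replicate 3 it called 1 gene, the myelin lipid carrier Pmp2. There 398 of the 423 kept their sign with an unadjusted p under 0.05, and their median change was 0.80 of its size. Of all 11476 genes tested there, 1304 had such a p. The 423 were chosen on arrays that this fit shares, so their keeping sign and p largely follows from the choice. Without NT-3 tube replicate 1, whose Hox values go against its label, 673 genes were called, 316 of them among the 423. Of the 24 largest differences 22 were called there, with Mrc1 at 1.60, Aspn at 1.72, Slc6a13 at 1.04, C3 at -1.18, Syn1 at -1.07 and Agpat3 at -1.73, and the exceptions were Ccn3 at 0.92 (adjusted p = 0.0598) and Rbm38 at -1.15 (adjusted p = 0.0692). Without tube alone replicate 2 there were 6 calls, all falls: the acyltransferase Agpat3, the retinaldehyde dehydrogenase Aldh1a1, the neurofilament Nefh, the ubiquitin ligase subunit Fbxw7, Reep1 and Disp2. Without tube alone replicate 1 there were 34 calls, and without NT-3 tube replicate 2 there were 1035.

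**Figure D2:**
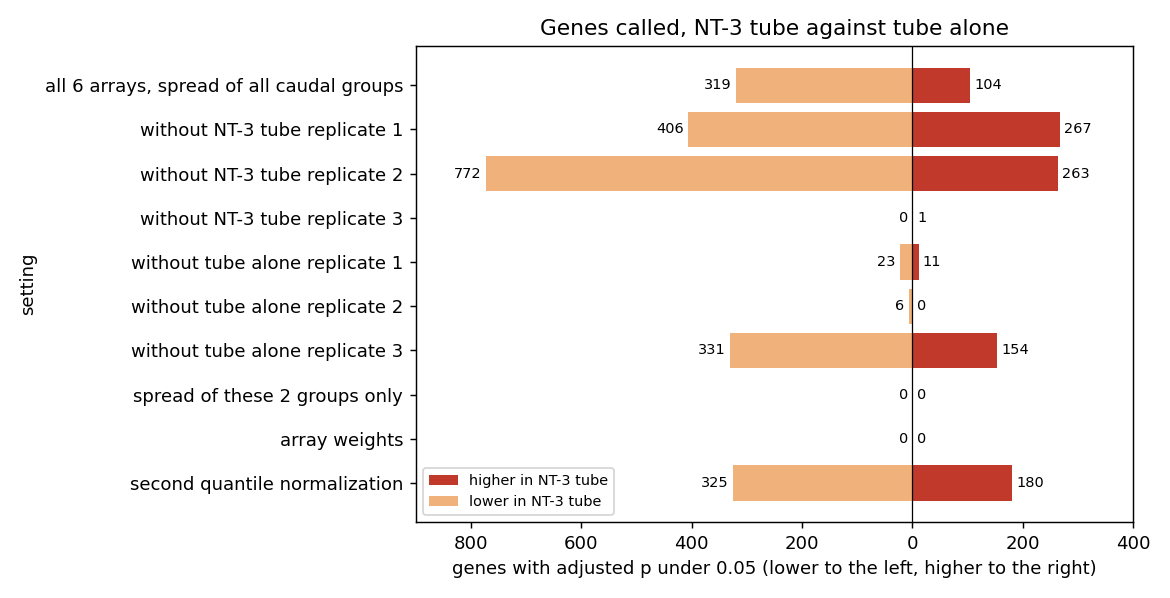
Genes with an adjusted p under 0.05 in NT-3 tube against tube alone on caudal day 10, higher to the right and lower to the left, in limma fits that differ in the arrays or the spread used. Of the 104 and 319 genes called with all arrays, 1 and 0 were called without NT-3 tube replicate 3.

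Promoters of 4 of the genes described next are shown because they come from the ends of the 2 groups of genes, Syn1 and Syp from those that fell and Aspn and Mrc1 from those that rose. Each runs from 250 bases before to 50 bases after the start of the gene, 5′ to 3′ on the strand of the gene (RefSeq, GRCr8), and capitals mark a match to one of the motifs searched.
Syn1, chrX:3725495-3725794, plus strand: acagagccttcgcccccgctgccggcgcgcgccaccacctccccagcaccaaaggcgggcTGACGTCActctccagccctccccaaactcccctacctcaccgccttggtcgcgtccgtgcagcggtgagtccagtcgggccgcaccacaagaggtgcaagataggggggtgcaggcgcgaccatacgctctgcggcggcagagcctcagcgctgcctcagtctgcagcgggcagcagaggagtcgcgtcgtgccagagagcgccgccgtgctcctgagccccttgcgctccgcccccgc
Syp, chrX:17536400-17536699, minus strand: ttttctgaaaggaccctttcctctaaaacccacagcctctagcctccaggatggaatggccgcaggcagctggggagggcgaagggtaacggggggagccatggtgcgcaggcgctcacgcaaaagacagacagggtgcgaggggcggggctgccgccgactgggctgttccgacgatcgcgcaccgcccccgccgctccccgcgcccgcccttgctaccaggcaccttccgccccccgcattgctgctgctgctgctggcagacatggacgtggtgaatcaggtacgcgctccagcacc
Aspn, chr17:15310420-15310719, minus strand: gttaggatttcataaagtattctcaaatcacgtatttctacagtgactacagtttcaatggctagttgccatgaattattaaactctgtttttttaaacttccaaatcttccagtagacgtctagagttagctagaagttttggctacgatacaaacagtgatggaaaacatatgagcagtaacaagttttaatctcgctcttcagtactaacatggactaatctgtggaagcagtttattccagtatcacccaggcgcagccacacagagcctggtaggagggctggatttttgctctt
Mrc1, chr17:82157475-82157774, plus strand: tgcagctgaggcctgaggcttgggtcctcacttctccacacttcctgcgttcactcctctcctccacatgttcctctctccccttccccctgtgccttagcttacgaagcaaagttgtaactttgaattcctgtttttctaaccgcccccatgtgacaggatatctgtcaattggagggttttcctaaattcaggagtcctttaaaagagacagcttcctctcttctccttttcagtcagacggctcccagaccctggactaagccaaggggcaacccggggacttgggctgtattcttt

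The motifs, read on both strands, were GAAANNGAA of interferon-responsive genes, the E-box CACGTG, the cAMP response element TGACGTCA, GGGACTTTC of the kappa B type, TTTGGCGC and TTTCCCGC of the E2F type, and TTCAGCACC and GGACAGCGC, the arms of the element bound by the neuronal repressor REST. The Syn1 window holds 1 cAMP response element and the other 3 windows hold none of the motifs. Promoters were found for 86 of the 104 genes that rose, 261 of the 319 that fell and 9553 of the 11475 tested. The G and C content had a median of 59.3% among genes that rose and 64.3% among genes that fell, against 61.0% among genes tested. It was 71.0% for Syn1, 67.0% for Syp, 39.0% for Aspn and 51.0% for Mrc1. These 4 do not stand for their groups. The other large falls ran from 44.7% (Grxcr1) to 77.3% (Phospho1), and the other large rises from 54.0% (Plaur) to 65.0% (Adamts1). The REST arms were added after values were seen. The cAMP response element stood in 2.33% of promoters of genes that rose and 1.92% of those that fell, against 3.20% of genes tested and 1.91% of all 27457 promoters in the table. The E-box stood in 9.30% and 6.51%, against 9.43% of genes tested and 6.65% of all promoters. GAAANNGAA stood in 4.65% and 3.83%, against 7.06% and 9.50%, and each of the other motifs stood in 2.33% or less of any of these sets. A match is a run of letters and not evidence of binding.

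Genes of the matrix and the meninges were among the rises. Asporin (Aspn), a small leucine-rich proteoglycan that binds collagen, had 9.92, 9.99 and 9.97 on the NT-3 tube arrays and 8.76, 6.96 and 9.05 on the tube alone arrays. The NT-3 tube arrays lay close together and above every tube alone array, of which replicate 2 was low. Aspn rose by 1.70 ± 0.46 (3.26-fold, adjusted p = 0.0367), and the difference was 1.06 without tube alone replicate 2 (adjusted p = 0.293).

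Slc6a13, a GABA and taurine transporter of the leptomeninges, had 9.64, 9.64 and 9.91 with NT-3 tube and 9.23, 8.14 and 8.83 with tube alone. It rose by 1.00 ± 0.24 (2.00-fold, adjusted p = 0.0231). Ccn3, a matricellular protein of the CCN family, had 9.45, 9.05 and 9.34 with NT-3 tube and 8.51, 7.93 and 8.38 with tube alone. It rose by 1.01 ± 0.27. In both genes every NT-3 tube array was above every tube alone array. Pdgfc, a platelet-derived growth factor, had 6.94, 6.96 and 6.94 with NT-3 tube and 6.23, 5.91 and 6.30 with tube alone, a rise of 0.80 ± 0.19. Its NT-3 tube values are nearly equal, so leaving out replicate 1 or 3 could not move the difference (0.80 each). Without NT-3 tube replicate 3 Pdgfc was not called (adjusted p = 0.256). Tube alone replicate 2 was the lowest array for Slc6a13, Ccn3 and Pdgfc, and none of them was called without it. The aggrecan-cleaving protease Adamts1 rose by 0.82 ± 0.20.

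Of the 11 meningeal and vascular leptomeningeal genes tested 1 rose (Slc6a13) and 0 fell, all 11 differences were positive and the median was 0.49 (0.23 without tube alone replicate 2), against -0.03 over all genes tested. Of 24 fibroblast and fibrillar matrix genes 0 were called and 22 differences were positive, with a median of 0.50. Array by array, the median of the fibroblast list relative to the tube alone mean was 0.72, 0.09 and 0.62 with NT-3 tube and 0.58, -0.71 and 0.17 with tube alone. The groups overlapped, and tube alone replicate 2 stood lowest. Without that array the list's median difference was 0.13. The most different members, Fbn1 (fibrillin) at 0.86 ± 0.28 and Loxl2 (a lysyl oxidase) at 0.81 ± 0.31, had adjusted p = 0.0644 and 0.121, and were at 0.42 and 0.46 without tube alone replicate 2. Among 11 pericyte and smooth muscle genes 2 rose, vitronectin (Vtn, 0.64 ± 0.17) and the pericyte potassium channel Kcnj8 (0.48 ± 0.12), and among 19 endothelial genes the junction protein Esam rose (0.38 ± 0.10).

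**Figure D3:**
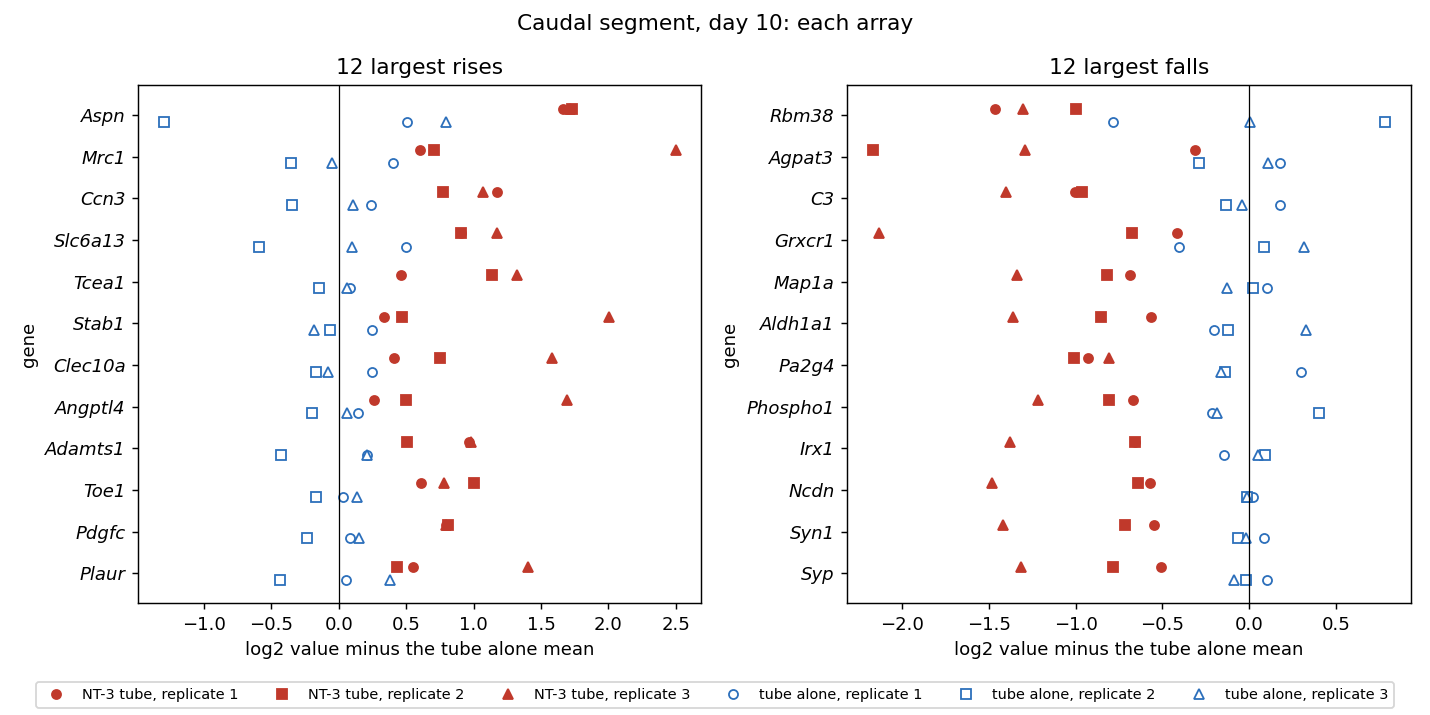
Log2 value of each array minus the tube alone mean for the 12 largest rises and the 12 largest falls whose groups do not overlap, with NT-3 tube filled above tube alone open, and symbols for replicates 1, 2 and 3. The NT-3 tube arrays of Aspn, Pdgfc and Pa2g4 lie close together, and replicate 3 stands apart in Mrc1, Stab1, Grxcr1 and Ncdn.

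Macrophage genes were also among the rises. Mrc1, the mannose receptor CD206 of perivascular, meningeal and alternatively activated macrophages, had 9.61, 9.72 and 11.51 with NT-3 tube and 9.41, 8.66 and 8.96 with tube alone. All NT-3 tube arrays were higher, replicate 3 by far the most. Mrc1 rose by 1.27 ± 0.31 (2.41-fold, adjusted p = 0.0248), and the difference was 0.66 (adjusted p = 0.378) without replicate 3.

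The scavenger receptor Stab1 had 8.56, 8.69 and 10.23 with NT-3 tube and 8.47, 8.16 and 8.04 with tube alone, a rise of 0.94 ± 0.28. The lectin Clec10a had 8.17, 8.51 and 9.34 with NT-3 tube and 8.01, 7.59 and 7.68 with tube alone, a rise of 0.91 ± 0.25. Without replicate 3 these differences were 0.40 and 0.58. The haemoglobin scavenger receptor Cd163 had 5.60, 6.28 and 7.90 with NT-3 tube and 5.74, 5.41 and 5.35 with tube alone, so that replicate 1 lay among the tube alone arrays, and rose by 1.09 ± 0.33 (0.44 without replicate 3). The endotoxin co-receptor Cd14 (0.90 ± 0.23), osteopontin Spp1 (0.77 ± 0.21) and the urokinase receptor Plaur (0.80 ± 0.22, its other probe set at 0.02) also rose, with 0.53, 0.45 and 0.49 left without replicate 3.

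Of the 16 phagocyte and macrophage genes tested 4 rose and 0 fell, against 0.906% and 2.78% of all genes tested. All 16 differences were positive, against 5032 of 11475, and the median was 0.57. The list's median relative to the tube alone mean was 0.12, 0.31 and 1.20 on the NT-3 tube arrays, against 0.06, -0.22 and 0.11 on the tube alone arrays. Replicates 1 and 2 stood just above the tube alone arrays and replicate 3 far above, and the list's median difference was 0.27 without replicate 3 and 0.76 without replicate 1. Of 19 lysosome and lipid genes 2 rose, the lipid droplet protein Plin2 (0.54 ± 0.15) and the protease Ctsl (0.46 ± 0.13), with 0.34 and 0.27 left without replicate 3, and the median was 0.23. Outside the lists, and chosen after their values were seen, the lysosomal enzymes Ctsc (0.84 ± 0.22), Ctsa (0.44 ± 0.12) and Acp2 (0.34 ± 0.08) rose as well, with 0.39, 0.22 and 0.27 left without replicate 3. Of 11 microglial genes 0 were called, with a median of 0.10, and 7 of the 11 differences were positive. The homeostatic markers Tmem119 and Olfml3 were at -0.34 ± 0.15 (adjusted p = 0.169) and 0.53 ± 0.26 (adjusted p = 0.230). The median was -0.01 without NT-3 tube replicate 3 and 0.19 without replicate 1. Among 19 cytokine and chemokine genes 0 were called, and the monocyte chemokine Ccl7 was at 0.80 ± 0.35 and the neutrophil chemokine Cxcl1 at 1.19 ± 0.52, with 0.37 and 0.60 left without replicate 3. Without replicate 1 Cxcl1 was at 1.77 and was called (adjusted p = 0.0490), and the median of the 19 genes was 0.41, against 0.24 with all arrays and 0.11 without replicate 3.

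Other markers were high on the same array. Haem oxygenase Hmox1 had 10.05, 10.65 and 12.71 with NT-3 tube and 10.08, 9.92 and 10.45 with tube alone (0.99 ± 0.31, adjusted p = 0.0561). Without NT-3 tube replicate 3 Hmox1 was at 0.20, and without replicate 1 at 1.53, which was called (adjusted p = 0.00569). On the rostral side it had 10.13, 11.45 and 10.94 with NT-3 tube and 10.24 and 10.10 with tube alone (0.67 ± 0.19, adjusted p = 0.162). Rostrally Hmox1 was called higher without the array labelled NT-3 tube rostral replicate 1, whose Hox values lie at the caudal level (adjusted p = 0.00407). The fatty acid carrier Fabp4, which fat cells and macrophages both express, had 7.73, 6.99 and 10.25 with NT-3 tube and 6.62, 5.68 and 7.13 with tube alone (1.85 ± 0.61, adjusted p = 0.0679, with 0.88 without NT-3 tube replicate 3 and 2.14, which was called at adjusted p = 0.0493, without replicate 1). Adipoq and Plin1, which define fat cells, reached at most 5.12 and 4.73 on any of the 6 arrays, below the dim level. Cd8a had 7.34, 7.83 and 9.73 with NT-3 tube and 7.41, 7.27 and 7.15 with tube alone (adjusted p = 0.132), and its difference was 0.31 without NT-3 tube replicate 3, while without replicate 1 it was called (adjusted p = 0.0316). Cd8b had 7.43, 7.39 and 8.39 with NT-3 tube and 7.17, 6.94 and 6.96 with tube alone (0.71 ± 0.29, adjusted p = 0.141), and its groups did not overlap. Cd3e, which defines T cells, lay between 6.07 and 6.80 with NT-3 tube and between 6.27 and 6.79 with tube alone. Of 6 lymphocyte genes tested 0 were called and the median was -0.02. The part of these cells in the macrophage rises was not tested beyond these values.

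The complement component C3, the point where the complement pathways meet, went the other way. C3 had 10.59, 10.63 and 10.19 with NT-3 tube, against 11.77, 11.46 and 11.55 with tube alone. The groups lay far apart with little spread within them. C3 fell by 1.12 ± 0.25 on the log2 scale (2.18-fold, adjusted p = 0.0177) and was at -0.98 without replicate 3 (adjusted p = 0.256). It was the only called gene of the 8 complement genes tested, whose other 7 differences were positive (list median 0.35, with 0.15 without replicate 3 and 0.53 without replicate 1). In lesion control C3 was 12.18, 12.11 and 11.11, and in normal cord it averaged 9.80 ± 0.16 (SD, n = 3).

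Neuronal genes were among the falls. Synapsin I (Syn1), which tethers synaptic vesicles to actin, had 9.04, 8.87 and 8.17 with NT-3 tube and 9.67, 9.52 and 9.57 with tube alone. Every NT-3 tube array was lower and replicate 3 the lowest. Syn1 fell by 0.89 ± 0.19 (1.86-fold, adjusted p = 0.0143), and was at -0.63 without replicate 3 (adjusted p = 0.256). Synaptophysin (Syp), an abundant membrane protein of synaptic vesicles, had 10.00, 9.72 and 9.19 with NT-3 tube and 10.61, 10.49 and 10.42 with tube alone, a fall of 0.87 ± 0.22. The microtubule protein Map1a had 9.91, 9.78 and 9.26 with NT-3 tube and 10.70, 10.62 and 10.47 with tube alone, a fall of 0.95 ± 0.19, and neurochondrin (Ncdn) fell by 0.90 ± 0.22.

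Of the 15 synaptic transmission genes tested 3 fell and 0 rose. Slc32a1, the vesicular transporter of GABA and glycine, had 8.37, 8.29 and 7.72 with NT-3 tube and 9.07, 8.92 and 8.96 with tube alone, a fall of 0.86 ± 0.23. Slc12a5 (KCC2), the chloride exporter that sets the strength of inhibition in mature neurons, had 10.86, 11.20 and 10.46 with NT-3 tube and 11.67, 11.66 and 11.51 with tube alone, a fall of 0.77 ± 0.16 (adjusted p = 0.0143). The obligatory NMDA receptor subunit Grin1 fell by 0.62 ± 0.16. In each of these genes the groups did not overlap. The median of the 15 was -0.23. Without NT-3 tube replicate 3 it was -0.11 and 0 of them were called, with Slc32a1 at -0.65 (adjusted p = 0.338), Slc12a5 at -0.58 (0.256) and Grin1 at -0.48 (0.310). Without replicate 2 it was -0.46 with 4 falls, without replicate 1 it was -0.19 with 3, and without tube alone replicate 2 it was -0.30 with 0.

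Chosen after their values were seen, other presynaptic genes that fell were the SNARE protein Vamp2 (0.64 ± 0.18 on one of its 2 probe sets, with the other at 0.06), complexin Cplx1 (0.58 ± 0.15, with its other probe set at -0.05), the vesicle GTPase Rab3a (0.75 ± 0.23), the active-zone protein Bsn (0.59 ± 0.13, its other probe set at 0.04) and dynamin Dnm1 (0.72 ± 0.19). Slc6a9, a glycine transporter mainly of glia that was chosen in the same way, fell by 0.77 ± 0.20. Without replicate 3 Rab3a was at -0.44 and Slc6a9 at -0.50.

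Of 19 neuronal genes tested 2 fell, Syn1 and the neurofilament heavy chain Nefh, and 0 rose. None of the 19 differences was positive, against 5032 of all 11475, and the median was -0.29. By array the list's median relative to the tube alone mean was -0.18, -0.09 and -0.68 with NT-3 tube and 0.08, -0.07 and -0.02 with tube alone. Replicates 1 and 2 were just below the tube alone arrays and replicate 3 well below, and the list's median difference was -0.12 without replicate 3. Of 8 motor neuron and cholinergic genes 1 fell, choline acetyltransferase Chat, which had 6.74, 7.31 and 6.60 with NT-3 tube and 7.53, 7.50 and 7.31 with tube alone (0.56 ± 0.15 lower, adjusted p = 0.0364, and 0.0684 without NT-3 tube replicate 1). Myrf, the transcription factor that drives myelination, fell by 0.61 ± 0.17 and was the 1 call among 9 oligodendrocyte lineage genes, and Fa2h, which makes myelin lipids, fell by 0.47 ± 0.14 and was the 1 call among 14 myelin genes (medians -0.33 and -0.07). Fa2h was at -0.71 without replicate 1 and -0.29 without replicate 3.

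**Figure D4:**
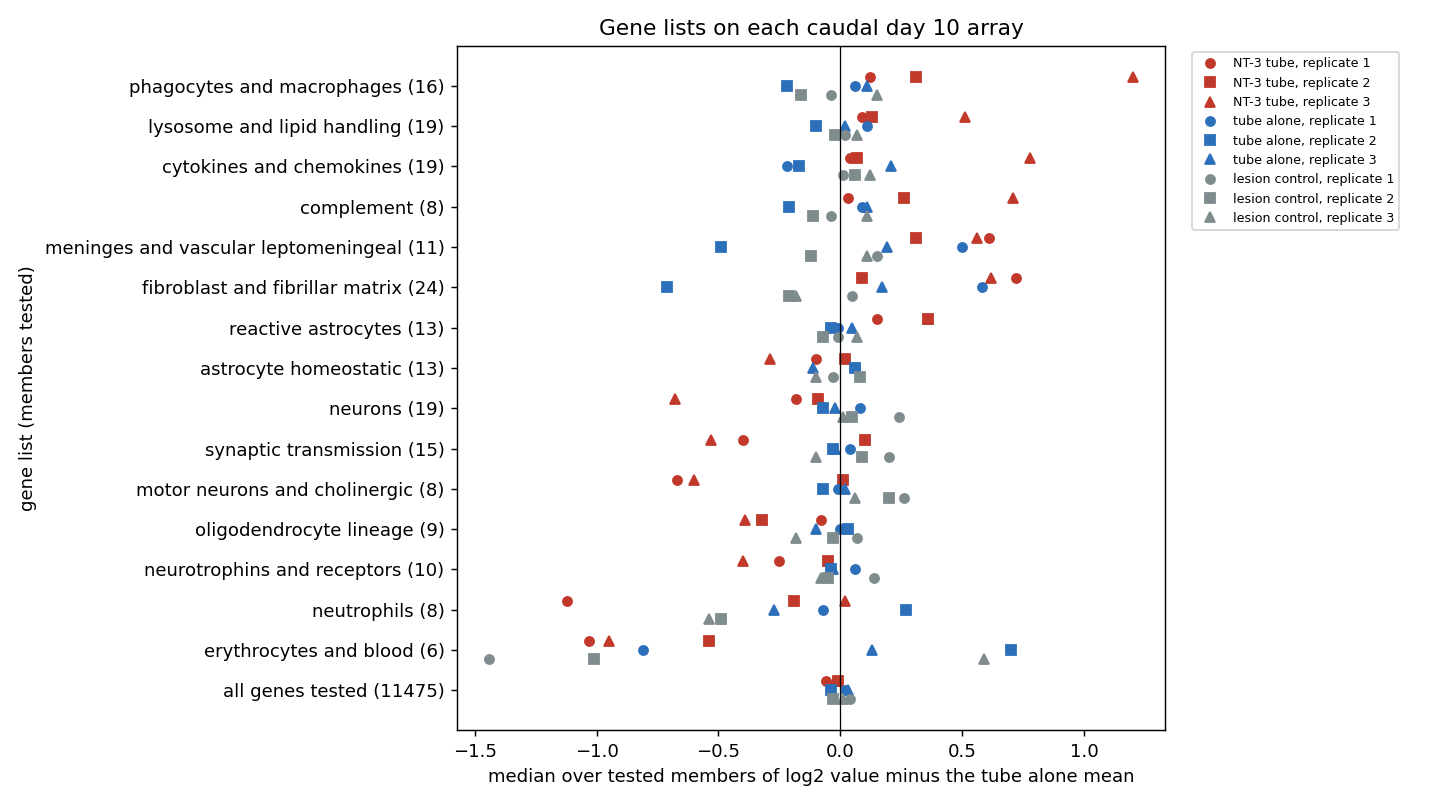
For 15 gene lists and all genes tested, the median over tested members of each array's log2 value minus the tube alone mean, with NT-3 tube in red above tube alone in blue and lesion control in grey. Replicate 3 of NT-3 tube (triangle) is at 1.20 for phagocytes and -0.68 for neurons, against 0.12 and -0.18 for replicate 1.

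Few astrocyte genes were called. Vimentin (Vim), the intermediate filament of reactive astrocytes and of mesenchymal cells, had 13.86, 13.82 and 13.93 with NT-3 tube and 13.69, 13.19 and 13.51 with tube alone, a rise of 0.41 ± 0.11 (0.27 without tube alone replicate 2). It was the 1 call among 13 reactive astrocyte genes (median 0.32), and 0 of 13 homeostatic astrocyte genes were called (median -0.12). The perineuronal and cartilage proteoglycan aggrecan (Acan) fell by 0.41 ± 0.11, the 1 call among 19 growth-inhibitory matrix and guidance genes (median -0.16). None of 21 regeneration-associated genes was called, with a median of -0.09.

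Pmp2, a fatty acid-binding protein of peripheral myelin that the cord also expresses, had 10.63, 9.02 and 8.88 with NT-3 tube and 7.65, 8.14 and 9.11 with tube alone. The groups overlapped and the array labelled replicate 1 stood highest. Pmp2 rose by 1.21 ± 0.26 (2.31-fold, adjusted p = 0.0158), was at 1.52 without replicate 3 (adjusted p = 0.0163) and at 0.65 without replicate 1 (adjusted p = 0.0767). It was the 1 call among 10 Schwann cell genes, whose median was 0.26.

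The neurotrophin system itself showed 1 call. NT-3 mRNA (Ntf3) had 5.06, 4.89 and 4.66 with NT-3 tube and 4.77, 4.93 and 4.73 with tube alone, below the level of 6.55 that was needed for a test, as were Ntf4, Gdnf and Lif. The array reads rat mRNA and not the protein carried in the tube. Ntrk3, the NT-3 receptor, had 6.91, 7.13 and 6.64 with NT-3 tube and 7.14, 7.47 and 7.02 with tube alone (-0.32 ± 0.24, adjusted p = 0.461). The groups overlapped, as they did for Ntrk2, the receptor of BDNF (-0.38 ± 0.12, adjusted p = 0.0597, with -0.19 without replicate 3 and -0.44, which was called at adjusted p = 0.0432, without replicate 1), and for the low-affinity receptor Ngfr (0.05 ± 0.31). Of the 5 probe sets of Ntrk2 3 had a negative difference, and the range was from -0.85 to 0.08. Sortilin (Sort1), which carries proneurotrophins and other cargo, had 10.76, 10.65 and 10.51 with NT-3 tube and 11.06, 11.03 and 10.93 with tube alone, a fall of 0.37 ± 0.11. Bdnf was at -0.06 ± 0.18, the GDNF receptors Gfra1 and Ret at -0.11 ± 0.09 and -0.22 ± 0.13, Cntf at 0.29 ± 0.14, Igf1 at 0.49 ± 0.25 and Vgf, a neurotrophin-induced peptide precursor, at -0.60 ± 0.29, none of them called. Of these Vgf was at -0.36 and Igf1 at 0.30 without NT-3 tube replicate 3, and Cntf at 0.16 without replicate 1. The other probe set of Gfra1 was at 0.21. Of 11 immediate targets of Trk signalling 0 were called (median -0.08), and the largest difference was that of the transcription factor Egr2 (0.63 ± 0.21, adjusted p = 0.0726).

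Some of the other large falls had no list. Agpat3, an enzyme of phosphatidic acid synthesis, had 8.82, 6.96 and 7.84 with NT-3 tube and 9.31, 8.84 and 9.24 with tube alone. It fell by 1.26 ± 0.24 (2.39-fold, adjusted p = 0.00997), 5 of its 6 probe sets pointed the same way and ranged from -1.26 to 0.04, and without NT-3 tube replicate 2 it was at -0.80. Aldh1a1, which makes retinoic acid, had 8.95, 8.66 and 8.15 with NT-3 tube and 9.31, 9.39 and 9.84 with tube alone, a fall of 0.93 ± 0.18. Scd, the stearoyl-CoA desaturase, had 7.92, 8.01 and 8.04 with NT-3 tube and 8.61, 8.48 and 8.58 with tube alone, a fall of 0.57 ± 0.13 with hardly any spread in either group. Grxcr1 fell by 1.07 ± 0.31 and was at -0.54 without replicate 3. The phosphatase Phospho1 fell by 0.90 ± 0.20 and the homeobox gene Irx1 by 0.90 ± 0.26. Irx1 fell on 1 of its 2 probe sets, and the other was at 0.06.

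The remaining large rises were those of Tcea1, a transcription elongation factor (0.97 ± 0.29), Angptl4, a secreted inhibitor of lipoprotein lipase (0.82 ± 0.23, and 0.38 without replicate 3), and Toe1, a nuclear RNA exonuclease (0.80 ± 0.20). The vasodilator peptide Adm rose by 0.64 ± 0.19 and was at 0.29 without replicate 3. The clock repressor Nr1d1 fell by 0.50 ± 0.15 (adjusted p = 0.0915 without NT-3 tube replicate 1), the 1 call among 16 clock genes, whose median was -0.23. Chosen after their values were seen, 5 genes of protein entry and folding in the endoplasmic reticulum rose by small amounts: the disulphide isomerases Pdia3 (0.52 ± 0.12, with its other probe set at 0.00) and Pdia6 (0.31 ± 0.09), the oligosaccharyltransferase subunits Ddost (0.35 ± 0.09) and Rpn2 (0.31 ± 0.09, and 0.18 without tube alone replicate 2), and the signal peptidase subunit Spcs2 (0.26 ± 0.08).

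Blood markers differed between the groups and among their arrays. Rbm38, an RNA-binding protein of erythroid and other cells, had 7.87, 8.34 and 8.03 with NT-3 tube and 8.55, 10.12 and 9.34 with tube alone, and fell by 1.26 ± 0.35 (adjusted p = 0.0390). Alas2, the haem synthesis enzyme of red cells, had 9.82, 11.05 and 10.38 with NT-3 tube and 10.72, 12.61 and 12.04 with tube alone (-1.37 ± 0.59, adjusted p = 0.160). In lesion control Rbm38 had 7.72, 8.17 and 10.44 and Alas2 had 9.50, 10.08 and 12.54, so that the arrays high in one were high in the other. Of 6 erythrocyte and blood genes tested 0 were called, all differences were negative and the median was -0.85 (-0.52 without tube alone replicate 2). The mitochondrial receptor Bnip3l, which clears mitochondria from maturing red cells and is also active elsewhere, fell by 0.48 ± 0.14 with overlapping groups. The part of residual blood in these falls was not tested. Neutrophil genes were low on the array labelled NT-3 tube replicate 1: S100a8 had 6.46, 9.94 and 10.25 with NT-3 tube and 9.89, 11.23 and 9.41 with tube alone, and averaged 7.46 ± 0.79 (SD, n = 3) in normal cord. None of the 8 neutrophil genes was called, and their median was -0.32 with all arrays and -0.05 without that replicate.

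The other lists that held no call were interferon response (25 tested, median 0.06), MHC class I (9, 0.09), MHC class II (9, 0.18), cell cycle (23, 0.19), mitochondrial respiration (15, -0.03), ribosomal proteins (8, 0.05), heat shock and stress (14, -0.03), immediate early genes (13, 0.22), skeletal muscle (12, 0.04), sensory ganglion (9, -0.13), ependyma and cilia (5, -0.03), choroid plexus (5, 0.07) and the genes that identify spinal cord (10, -0.08). The cell cycle median was 0.04 without NT-3 tube replicate 3 and 0.35, with 4 of its genes called higher, without replicate 2. That of MHC class II was 0.07 and that of the immediate early genes 0.11 without replicate 3. Over all 43 lists, leaving out NT-3 tube replicate 1, 2 or 3 or tube alone replicate 2 turned the median or moved it by over 1.5 times in 39. Single calls already named lie in the lists of glucocorticoid response (Angptl4, 13 tested, median -0.04), cholesterol synthesis (Scd, 16, -0.08), hypoxia response (Adm, 15, -0.11) and, as a rise of Spp1 and a fall of Acan, cartilage and bone (5, 0.18). Of the fat cell genes 3 were tested (Fabp4, Lpl and Cfd) and 0 called, with a median of 0.81 and 0.20 without replicate 3. Without NT-3 tube replicate 1 the median was 1.17 and all 3 were called higher. Without NT-3 tube replicate 2 it was 1.08, with 2 called higher. Lpl had 8.21, 8.32 and 10.1 with NT-3 tube and 8.01, 7.87 and 8.33 with tube alone. Cfd lay between 9.44 and 11.44 with NT-3 tube and reached at most 9.84 with tube alone. The groups of both genes overlapped. RT1-CE10, an MHC class I gene, had 7.40, 7.14 and 7.20 with NT-3 tube and 6.63, 7.13 and 7.22 with tube alone, and RT1-CE12 lay between 10.38 and 10.84 on all 6 arrays. Neither was called (adjusted p = 0.615 and 0.731).

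Each tube arm was also compared with the lesion control arm. NT-3 tube against lesion control gave 109 calls (0.950% of the genes tested, 35 higher and 74 lower), and tube alone against lesion control gave 1 (0.00871%). These comparisons share arrays with each other and with the first one, so only their own values are given. C3 was lower in NT-3 tube than in lesion control by 1.33 ± 0.25 (adjusted p = 0.00542), while tube alone and lesion control differed by -0.21. Agpat3 stood at -1.25 ± 0.24 in NT-3 tube against lesion control (adjusted p = 0.00542) and 0.01 in tube alone against lesion control, and Scd at -0.58 ± 0.13 (adjusted p = 0.0195) and -0.02. Nefh stood at -0.66 ± 0.11 (adjusted p = 0.00542) and -0.08, Chat at -0.80 ± 0.15 (adjusted p = 0.00542) and -0.23, and Slc12a5 at -0.78 ± 0.16 (adjusted p = 0.00909) and 0.00. These 6 genes were picked among those called against both other arms, so the NT-3 tube arm standing apart follows from the choice. Of the 104 genes that rose against tube alone, 9 were called the same way against lesion control. Of the 319 that fell, 41 were.

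Pa2g4, a growth-regulating RNA-binding protein, was the 1 gene called between tube alone and lesion control. It had 8.84, 8.76 and 8.96 with NT-3 tube and 10.07, 9.63 and 9.61 with tube alone, and 8.86, 8.55 and 8.75 with lesion control. Here tube alone stood apart from both other arms, with 1.05 ± 0.19 against lesion control (adjusted p = 0.0235), and NT-3 tube was 0.92 ± 0.19 lower than tube alone. That value comes from 1 of 2 probe sets, and the other differed by 0.00. For Syn1 and Map1a lesion control lay between the tube arms: NT-3 tube against lesion control was -0.53 (adjusted p = 0.116) and -0.55 (adjusted p = 0.114), and tube alone against lesion control was 0.36 and 0.40. In some rises tube alone lay further from lesion control than NT-3 tube did. Ccn3 stood at -0.68 in tube alone and 0.33 in NT-3 tube, and Pmp2 at -0.80 and 0.41. Others went the other way, such as Mrc1 at -0.21 and 1.06. None of these 3 genes was called in either comparison. Without NT-3 tube replicate 3, limma called 0 genes between NT-3 tube and lesion control, with 860 at an unadjusted p under 0.05, and it called 322 without replicate 1 and 801 without replicate 2.

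Against normal cord, the changes had the direction of the injury in some genes and opposed it in others. Mrc1 was 3.78 above normal cord in NT-3 tube and 2.51 above in tube alone, and Aspn was 3.65 and 1.95 above. Syn1 was 1.54 lower than normal with NT-3 tube and 0.64 lower with tube alone (differences of -1.54 and -0.64), and Scd stood at -2.63 and -2.06. C3 was 0.67 above normal with NT-3 tube and 1.79 above with tube alone.

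The same arms were compared in the caudal segment on 7 days. NT-3 tube against tube alone gave 2256 calls on day 1 (19.7%), 163 on day 3 (1.42%), 423 on day 10, 0 on day 20 (with 1296 at an unadjusted p under 0.05 in limma), 6 on day 30 (0.0523%), 17 on day 60 (0.148%) and 38 on day 90 (0.331%). The day 10 difference minus the mean difference of the other days was called for 389 genes (3.39%), 127 above and 262 below, and for 3 without NT-3 tube replicate 3, 23 without tube alone replicate 2, 775 without NT-3 tube replicate 1 and 863 without NT-3 tube replicate 2.

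Aspn stood at -1.95 ± 0.46 on day 3 (adjusted p = 0.0180), 1.70 on day 10 and -0.74 ± 0.46 on day 20 (adjusted p = 0.524). It was called with opposite signs on days 3 and 10 and was not called on day 20. Its mean in NT-3 tube was 8.71 on day 3 and 9.96 on day 10, and in tube alone it was 10.65 and 8.26. Its day 10 difference exceeded that of the other days by 2.53 ± 0.50 (adjusted p = 0.00824). C3 was lower with NT-3 tube on day 3 (-1.60 ± 0.25, adjusted p = 0.000191) as on day 10, and lay within 0.29 of tube alone on days 1, 20, 30, 60 and 90. Mrc1 was at 0.79 ± 0.31 on day 20 (adjusted p = 0.392), again with 1 NT-3 tube array high (9.67, 11.01 and 9.64). Syn1 lay between -0.13 and 0.40 on the other days, and its day 10 difference was 0.99 ± 0.20 below theirs (a difference of -0.99, adjusted p = 0.00991).

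**Figure D5:**
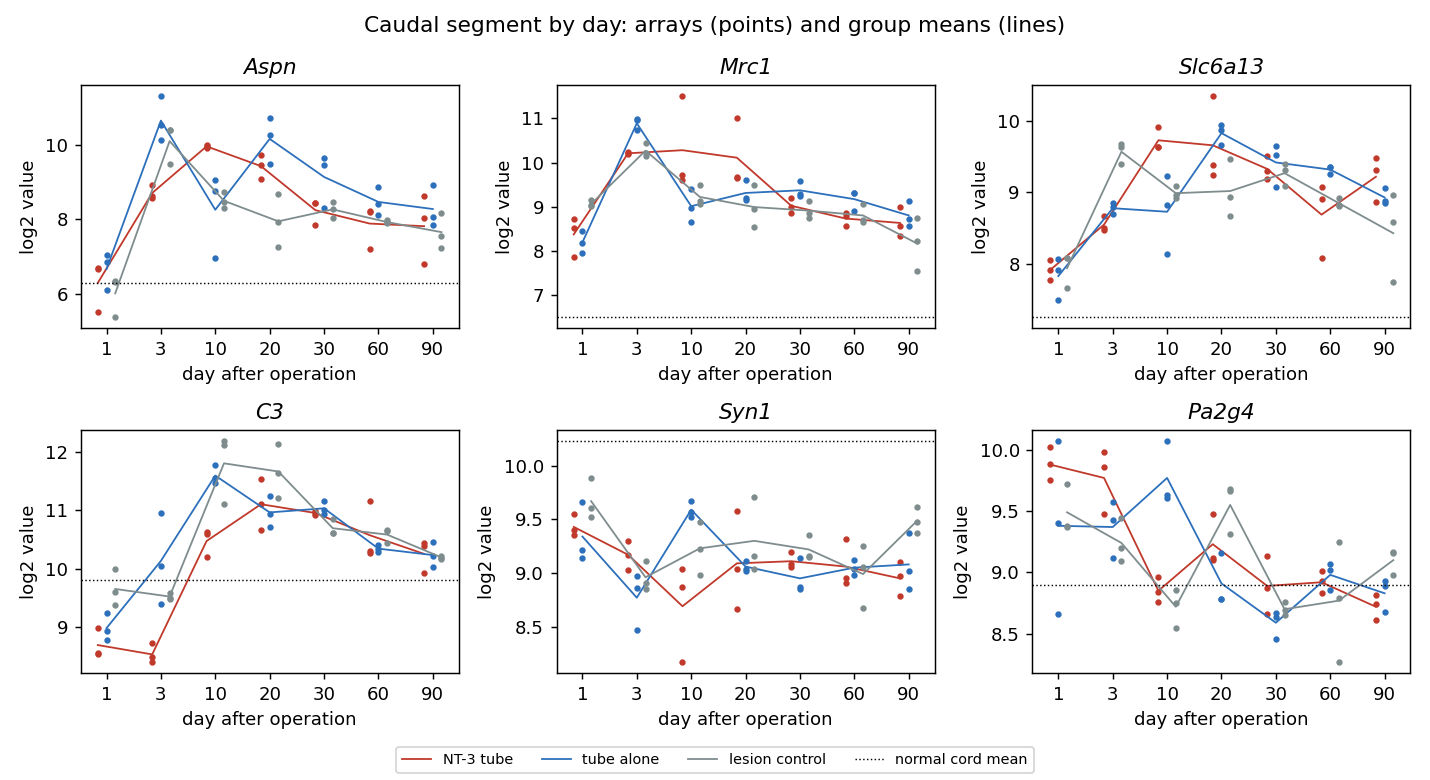
Log2 values of 6 genes in the caudal segment by day, with NT-3 tube in red, tube alone in blue and lesion control in grey (points are arrays, lines join group means) and the normal cord mean dotted. On day 10 NT-3 tube is above the other arms for Aspn, Mrc1 and Slc6a13 and below tube alone for C3, Syn1 and Pa2g4.

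On the rostral side of the gap the same arms differed in 6 genes on day 10 (0.0519% of 11550 tested). The cholinergic neuron lectin Chodl (1.09 ± 0.21), the neurofilament Nefm (0.70 ± 0.14), Plxdc1 (0.50 ± 0.11) and Slc35d3 (0.88 ± 0.19) rose, and the protease inhibitor Serpina1 (-0.72 ± 0.14) and Tbc1d14 (-0.42 ± 0.09) fell. These 6 were named because they are all of the calls, and none of them was called caudally. None of them was called without the array labelled NT-3 tube rostral replicate 1. The 2 genes called then were Hmox1 and Actg2, both higher with NT-3 tube.

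The caudal difference differed from the rostral one for 155 genes (1.34%), for 6 without the array labelled NT-3 tube rostral replicate 1, for 9 without caudal replicate 3 and for 2 without both arrays numbered 1. Those 2 were Nefh and Acan. Caudally Nefh had 12.54, 12.84 and 12.38 with NT-3 tube and 13.35, 13.07 and 13.08 with tube alone, and fell by 0.58 ± 0.11 (adjusted p = 0.0129). Rostrally it had 13.23, 12.37 and 12.52 with NT-3 tube and 12.08 and 12.06 with tube alone. NT-3 tube was thus lower on every caudal array and higher on every rostral array, and the difference between the segments was -1.22 ± 0.19 (adjusted p = 0.000163), or -0.93 ± 0.20 without both arrays numbered 1 (adjusted p = 0.0485). Acan had 6.68, 6.43 and 6.40 with NT-3 tube and 6.88, 6.79 and 7.06 with tube alone caudally, and 6.88, 7.61 and 6.67 with NT-3 tube and 6.56 and 6.67 with tube alone rostrally. Its difference between the segments was -0.85 ± 0.19 (adjusted p = 0.0153), or -1.02 ± 0.20 without those arrays (adjusted p = 0.0330).

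Chat had the signs of Nefh, with -0.56 caudally, 0.96 rostrally and -1.52 ± 0.26 between the segments (adjusted p = 0.000669). The last was -1.20 ± 0.26 without the array labelled NT-3 tube rostral replicate 1 (adjusted p = 0.0278). Unlike Nefh, Chat was not called between the segments without both arrays numbered 1, and its caudal groups met at 7.31. Its caudal difference was -0.49 without NT-3 tube caudal replicate 1 (adjusted p = 0.0684). Aspn gave a difference between the segments of 3.61 ± 0.90 (adjusted p = 0.0290) that rested on that array. Rostrally it had 5.23, 11.42 and 10.89 with NT-3 tube and 11.16 and 11.02 with tube alone, and only the array labelled replicate 1 was low.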

How the data were processed

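The deposited values are log2 intensities of Affymetrix rat genome arrays, made by the authors with RMA in Affymetrix Expression Console, per the submitters' processing notes (versions not given in the sources used here). RMA corrects background, quantile-normalizes and summarises probes, which compresses differences of dim genes. Array medians differed by little, and precision is limited by how many arrays a group has. Of 31099 probe sets 20832 have 1 gene symbol, 436 several and 9831 none; the brightest probe set stood for each of 14218 genes, since probe sets can disagree. Genes with a group mean of at least 6.55 (the 40th percentile) were tested with limma 3.58.1 (R 4.3.3), 1 mean per group over 63 caudal and 3 normal arrays, and adjusted by Benjamini and Hochberg. Rostral and segment contrasts used the same test in fits of their own. Tables were made with pandas 2.3.3 and numpy 2.4.6 in Python 3.11.15, figures with matplotlib 3.10.9, and limma was tested on simulated data. Named genes were the 12 largest rises and the 12 largest falls whose groups do not overlap, in each of 43 lists the 4 called members of largest difference (the 2 largest differences where none was called), all neurotrophin genes, RT1-CE10 and RT1-CE12; others are said to be chosen after their values were seen. Members and lists were chosen with earlier results of these data known. Alternatives were the replicate block, probe set mean, no filter, second quantile normalization, trend, array weights, own spread and leaving out arrays.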

Additional observations from a re-analysis of the deposited data

Results flagged for a closer look

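For 20 of the 24 largest differences, the day 10 difference between NT-3 tube and tube alone departed from the mean difference of the other caudal days (limma, adjusted p under 0.05 over all genes). Among the rises the departure was 2.53 for Aspn, 1.38 for Mrc1, 1.24 for Ccn3, 1.12 for Slc6a13, 1.25 for Tcea1, 1.07 for Stab1, 0.96 for Clec10a, 1.15 for Adamts1, 0.96 for Toe1 and 0.93 for Pdgfc. Among the falls it was -1.25 for Agpat3, -1.32 for Grxcr1, -1.06 for Map1a, -0.96 for Aldh1a1, -1.14 for Pa2g4, -0.98 for Phospho1, -1.05 for Irx1, -1.02 for Ncdn, -0.99 for Syn1 and -1.04 for Syp. These genes were chosen for their day 10 difference, so the departure partly follows from the choice.

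For 6 genes the caudal difference also departed from the rostral one, by 3.61 for Aspn, 1.88 for Ccn3, 1.38 for Slc6a13, 1.37 for Clec10a, -1.30 for Agpat3 and -1.17 for Syn1. None of these 6 was called without the array labelled NT-3 tube rostral replicate 1, whose Hox values lie at the caudal level.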

How the results depend on the processing

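For NT-3 tube against tube alone, 423 genes were called with all arrays, 0 with the spread of these groups alone (1365 at an unadjusted p under 0.05), 0 with array weights (1508), 1 without NT-3 tube replicates 1 and 3, 9 with a 2-fold minimum and 1 to 1035 with 1 array left out. No filter (310), the probe set mean (338), the trend (461) and a second quantile normalization (505) stayed within 1.5 times. Between NT-3 tube and tube alone arrays of the same number, the correlations of deviations were 0, 0.22 and 0.17 for numbers 1, 2 and 3. Between arrays of different numbers they ran from -0.24 to 0.09. So few arrays cannot show whether the numbers pair them. With the replicate block 286 genes were called. For day 10 against the other days the counts were 389, 237 with the replicate block, 7 with array weights and 3 to 863 with 1 array left out. Rostrally they were 6, 0 with the own spread (322 at an unadjusted p under 0.05), 3 with the trend, 1 with array weights and 2 without NT-3 tube replicate 1. Between the segments they were 155, 4 with array weights, 2 without both replicates 1 and 6 to 9 with 1 array left out. Against lesion control NT-3 tube gave 109, 64 with no filter, 2 with the own spread, 0 with array weights (1349) and 0 to 801 with 1 array left out, with 860 at an unadjusted p under 0.05 at the lowest. Tube alone against lesion control gave 1, 0 with the block (599), 0 with the probe set mean (638), 0 with the own spread (657) and 2 after quantile normalization, all in limma. Of 1789 pairs of a gene and a setting 458 lost the call and 23 changed sign, 0 of these in a gene called under either setting (Bdnf was at -0.06 with all arrays and 0.07 without NT-3 tube replicate 3); the cause was not tested. Leaving out arrays in the rostral, segment and lesion control comparisons, and NT-3 tube replicates 1 and 3 together, was chosen after seeing the data.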
